A study of Mus musculus with 2 samples.

Results

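The Pomc cells of the FMC_new library are described here. They were chosen by their own counts: a barcode was kept when it held 500 to 5000 genes, 500 to 20000 UMIs (unique molecular identifiers, each standing for 1 captured transcript) and at most 5% mitochondrial UMIs, and it was a Pomc cell when Pomc took at least 5% of its UMIs and Ptprc, the pan-leukocyte gene, had none. This selection found 328 cells among the 16818 kept in FMC_new (1.95%, 95% interval 1.75 to 2.17%), and among 25652 kept in both libraries of the study. Of the 8834 kept cells of the other library, C-ON, 0 met the same rule, and a count of 0 leaves room for at most 0.0340%. Within the Pomc cells, 76 carried at least 1 UMI of Pax7 or Pcsk2 and are set beside the 252 that carried neither.

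Both libraries came from optic nerves of Nf1-OPG mice at 12 weeks of age, and the study's methods give this model as Nf1 flox/mut; GFAP-Cre on a C57BL/6 background, so that Cre is driven by the promoter of an astroglial gene. Each library is a pool of 10 mice, from whose optic nerves and meningeal duras, collected separately, cells were prepared; the nerves were dissociated with a neural tissue kit, cleared of debris and myelin, and run on the droplet-based 10x 5′ gene expression assay. C-ON is titled a control and FMC_new carries only that code, which the labels do not explain, so both were placed in the one group their genotype gives. FMC_new held 21341 barcodes with 129113325 UMIs (median 4001 per barcode) and C-ON held 10845 with 85101211 (median 6422). With 1 library holding these cells there are no replicates, and no test between groups was made; intervals are exact 95% intervals that cover counting error only.

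Pomc encodes proopiomelanocortin, the precursor of adrenocorticotropin, melanocyte-stimulating hormones and beta-endorphin. In the pituitary, corticotrophs of the anterior lobe cleave it mainly with the convertase encoded by Pcsk1 and answer to corticotropin-releasing hormone, vasopressin and glucocorticoids, whereas melanotrophs of the intermediate lobe also use the convertase encoded by Pcsk2 and are held back by dopamine. Tbx19 is the T-box factor that both lineages need to transcribe Pomc, and Pax7 is the pioneer factor that sets melanotrophs apart.

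The sequences before the starts of Pomc, Tbx19 and Pcsk2 are shown because these genes define the cells and their division. Pomc lies at chr12:3954951-3960642 (plus strand), Tbx19 at chr1:165137855-165160773 (minus strand), Pcsk2 at chr2:143546156-143816285 (plus strand) and Pax7 at chr4:139737062-139833528 (minus strand) in the GENCODE annotation of mouse GRCm38, the assembly that mm10 names. The 250 bases before each RefSeq start in GRCm38.p6 are given 5′ to 3′ on the strand of the gene, at chr12:3954695-3954944, chr1:165160774-165161023 and chr2:143545883-143546132, with matches of 2 motifs in capitals.
Pomc: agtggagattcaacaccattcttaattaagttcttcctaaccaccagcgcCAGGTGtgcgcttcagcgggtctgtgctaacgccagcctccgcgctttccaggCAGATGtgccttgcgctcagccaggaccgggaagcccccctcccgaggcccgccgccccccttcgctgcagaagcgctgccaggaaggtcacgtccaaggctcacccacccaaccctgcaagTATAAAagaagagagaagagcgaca
Tbx19: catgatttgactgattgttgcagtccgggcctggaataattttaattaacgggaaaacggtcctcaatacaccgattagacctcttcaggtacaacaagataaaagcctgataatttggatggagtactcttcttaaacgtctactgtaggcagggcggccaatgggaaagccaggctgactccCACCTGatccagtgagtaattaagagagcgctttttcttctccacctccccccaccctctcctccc
Pcsk2: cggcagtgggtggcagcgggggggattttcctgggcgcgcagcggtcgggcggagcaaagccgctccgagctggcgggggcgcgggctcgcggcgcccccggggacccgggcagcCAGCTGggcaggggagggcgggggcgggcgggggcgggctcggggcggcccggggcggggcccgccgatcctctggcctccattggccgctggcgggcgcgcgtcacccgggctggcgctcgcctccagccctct

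The capitals mark the E-box CANNTG, the kind of site that basic helix-loop-helix factors such as Neurod1 bind, and the TATA box TATAAA, both searched on either strand. Pomc held 2 E-boxes and 1 TATA box, and Tbx19 and Pcsk2 held 1 E-box each. Of 32851 RefSeq promoters of the same length, 66.2% held an E-box and 12.4% a TATA box. The T-box core TCACAC (in 12.3% of promoters) and the Pitx site TAATCC (in 6.25%) were also searched and had no match in these windows. These are matches of letters and not measured binding.

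Pomc, Ptprc, Pax7 and Pcsk2 chose or divided the cells, so their values are a description. Pomc took 5.02% of the UMIs in the lowest Pomc cell, 8.61% in the median cell and 43.4% in the highest, and the median cell held 742 Pomc UMIs. The cells were deep for this library, with a median of 9590 UMIs and 3462 genes against 4676 UMIs and 1835 genes over all kept cells. They held 66.3% of the Pomc UMIs of the kept cells. A Pomc UMI was found in 48.7% of all FMC_new barcodes. It was found in 45.1% of leukocytes (kept cells with Ptprc and Pomc under 5%), where the median count was 0. A single Pomc UMI thus does not mark a Pomc cell in this library. The leukocyte class had no limit on Gh or Prl. Its highest values were 71.8% of UMIs for Gh, 47.5% for Prl and 4.94% for Pomc, against medians of 0.299%, 0.0747% and 0%. The class therefore includes cells rich in pituitary hormone RNA, and their part in its values was not tested. Another 31 kept cells had Pomc at 5% or more together with Ptprc and were left out by the rule.

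Gh and Prl, the growth hormone and prolactin genes of other pituitary cells, were counted in Pomc cells and leukocytes. The level of RNA shared between droplets was not estimated. The median Pomc cell held 12 Gh UMIs and the median leukocyte held 13, and Gh was present in 99.7% of Pomc cells and 99.8% of leukocytes. No Pomc cell had Gh or Prl at 10% or more of its UMIs. The 498 kept cells that did, with Pomc under 5% and no Ptprc, are called Gh or Prl cells below and serve as the comparison most like the Pomc cells. Barcode sequences common to both libraries numbered 296 of the 21341 in FMC_new, and 9 of the 328 Pomc cells were among them. Their origin was not tested.

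The label of the cells was checked against Tbx19, which the selection did not use. Tbx19 had a UMI in 279 of 328 Pomc cells (85.1%, 80.7 to 88.7%), in 4.02% of Gh or Prl cells and in 1.75% of leukocytes. Median depth differed (9590, 6960 and 4454 UMIs), and after each cell was thinned to 3000 UMIs the shares were 70.7%, 2.67% and 1.30%. The level of Tbx19, in UMIs per 1000000 UMIs other than those of 7 pituitary hormone genes (CPM from here on), was 542 (514 to 571) in Pomc cells against 12.6 (8.47 to 18.2) in Gh or Prl cells and 7.82 (7.04 to 8.66) in leukocytes. Tbx19 in Pomc cells was thus well above its level in both other classes. The part of RNA shared between droplets in these values was not tested. Nor was that of the hormone-rich cells within the leukocyte class.

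The threshold on Pomc did not fall in a gap of the Tbx19 values. Among kept cells without Ptprc, Tbx19 had a UMI in 73.3% of the 86 cells with Pomc at 4 to 5% of UMIs, just outside the rule, and in 79.0% of the 62 cells at 5 to 6%, just inside it. It was still found in 52.8% of the 252 cells at 1 to 2%, whose median depth was 2847 UMIs. Median depth rose with the bands to 11762 UMIs at 15 to 20% Pomc. The cells were not thinned here, so the part of depth in the rise of Tbx19 was not tested. The share of cells with Pax7 or Pcsk2 took another course over the same bands, and the part of depth in it was not tested either. They were found in 9.92% of cells at 1 to 2% Pomc, 11.5% at 2 to 3%, 13.1% at 3 to 4% and 12.8% at 4 to 5%, below the threshold. Above it they were found in 6.45% of cells at 5 to 6% Pomc and 4.82% at 6 to 8%, and then in 32.7% at 8 to 10%, 42.5% at 10 to 15%, 34.1% at 15 to 20% and 36.4% of the 11 cells at 20% or more. Taken by itself, Pax7 was found in 1.59% of cells at 1 to 2%, 2.42% at 2 to 3%, 4.10% at 3 to 4% and 4.65% at 4 to 5%. It was found in 0% at 5 to 6%, 3.61% at 6 to 8%, 14.5% at 8 to 10% and 32.9% at 10 to 15%. Among the Pomc cells, the positive ones had a median Pomc share of 12.3% of UMIs against 7.59% in the other Pomc cells.

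**Figure D1:**
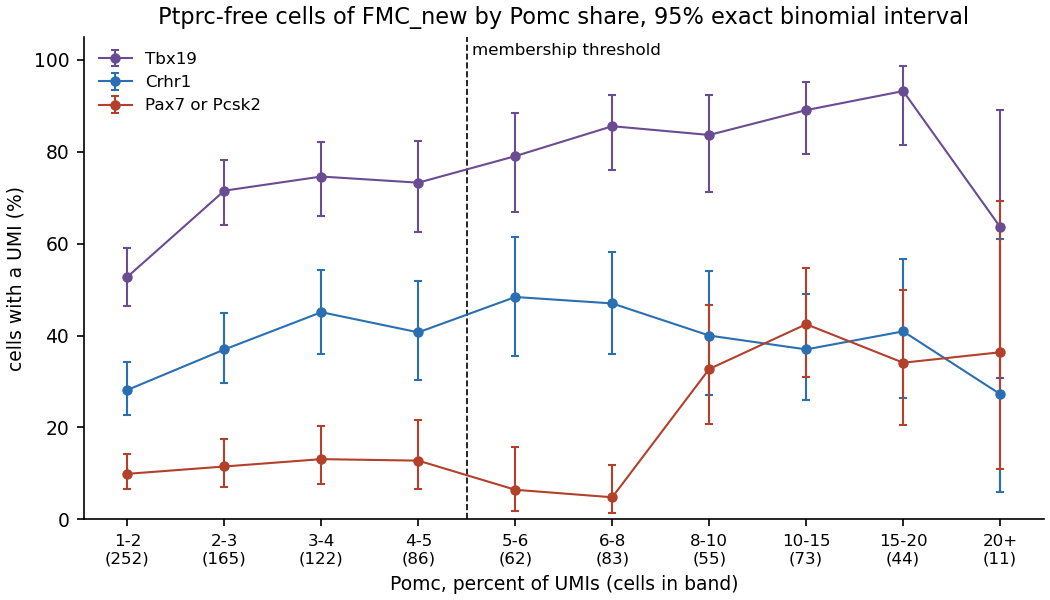
Share of Ptprc-free kept FMC_new cells with a UMI of Tbx19, Crhr1, or Pax7 or Pcsk2 (y axis, percent) in bands of the Pomc share of UMIs (x axis, cells per band in brackets); bars are exact 95% binomial intervals and the dashed line is the 5% threshold. Tbx19 rises from 52.8% in the lowest band to 93.2% at 15 to 20% Pomc without a step at the threshold and stands at 63.6% in the 11 cells above that. Cells were not thinned, and over the same bands median depth rises from 2847 to 11762 UMIs. The Pax7 or Pcsk2 share stands at 9.92 to 13.1% below the threshold, at 4.82% at 6 to 8% and 32.7% at 8 to 10%.

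Pax7 and Pcsk2 were nested. All 46 Pomc cells with Pax7 also held Pcsk2, and 0 of the 252 cells without Pcsk2 held Pax7. Among the 76 cells with Pcsk2, 13 had a single UMI and 63 had at least 2, with a median of 19 and a highest count of 57. Of the 63, 45 held Pax7, whereas 1 of the 13 did. A Pcsk2 UMI was found in 5.42% of Gh or Prl cells and 1.85% of leukocytes.

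**Figure D2:**
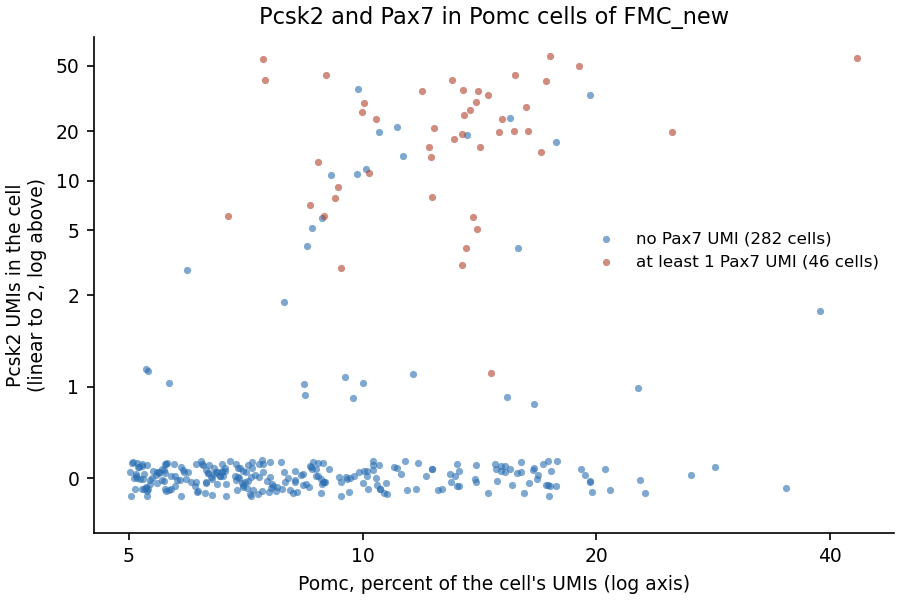
Pcsk2 UMIs (y axis, linear to 2 and logarithmic above, points spread slightly in height) against the Pomc share of UMIs (x axis, logarithmic) for each of the 328 Pomc cells, coloured by Pax7. The 252 cells without Pcsk2 form the band at 0 and hold no Pax7, and 45 cells hold 10 or more Pcsk2 UMIs.

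Cells with 1 Pcsk2 UMI had shares of the releasing-hormone receptors near those of cells with none. Crhr1, the receptor for corticotropin-releasing hormone, or Avpr1b, the pituitary vasopressin receptor, was detected in 171 of 252 cells with no Pcsk2 (67.9%, 61.7 to 73.6%). The same was true of 9 of 13 cells with 1 Pcsk2 UMI (69.2%, 38.6 to 90.9%) and of 6 of 63 cells with 2 or more (9.52%, 3.58 to 19.6%). Oacyl ran the opposite way, in 0.397%, 15.4% and 93.7% of the 3 classes. Avpr1b had 1 UMI in all 63 cells with 2 or more Pcsk2 UMIs. When positive cells were required to hold at least 2 UMIs of Pax7 and Pcsk2 together, and cells with 1 were left out, 513 genes were higher and 613 lower in place of the counts given next.

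Genes were compared between the positive and the other Pomc cells to find what else differed between them. A gene was called when its level differed at least 2-fold with a counting interval that left out 1, among 7472 genes with at least 50 UMIs over both classes. In the positive cells 469 genes (6.28%) were higher and 472 (6.32%) lower, and the median fold of all tested genes was 0.983. The classes had medians of 10472 and 9325 UMIs per cell, but the other Pomc cells held more shallow cells. Below 3000 UMIs lay 4 of the 76 positive and 48 of the 252 other cells, which values thinned to 3000 UMIs leave out. The other Pomc cells held the larger share of the UMIs, and a listed gene could pass the minimum of 50 UMIs through the class in which it was high.

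Of the 7 genes listed as melanotroph genes, Pax7 and Pcsk2 made the division, and the other 5 were all higher in the positive cells, with a median fold of 98.2 over the 5. Oacyl had 728 UMIs in the positive cells and 1 in the others, 1124 against 0.516 CPM, a fold of 2179 (390 to 86163). It was present in 80.3% of positive cells, with a median of 8 and a highest count of 31 UMIs, and no other Pomc cell had more than 1. Drd2, the dopamine receptor of melanotrophs, stood at 191 against 1.55 CPM (124-fold, 41.4 to 608). The other 3 were Megf11 (98.2-fold, 41.2 to 306), Rbfox3 (28.4-fold, 12.3 to 80.7) and Esm1 (22.8-fold, 18.0 to 29.2), of which Esm1 was also present in 13.5% of the other Pomc cells.

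Of the 6 genes listed as corticotroph genes, 4 were lower in the positive cells and 0 higher, with a median fold of 0.280. The 13 cells with 1 Pcsk2 UMI carried much of what the positive cells held of Crhr1, Avpr1b and Nr3c1. For the 4 called genes the log2 fold under the stricter division (at least 2 UMIs of Pax7 and Pcsk2 together) is therefore given as well. That division still keeps the 1 of the 13 cells that also held Pax7. Crhr1 stood at 30.9 CPM in the positive cells and 107 in the others (0.288, 0.172 to 0.456), and 13 of its 20 UMIs in the positive cells lay in those 13 cells. Its log2 fold was -1.80, and -2.91 under the stricter division. Avpr1b stood at 27.8 against 126 CPM (0.220, 0.128 to 0.355), with 17 of its 18 UMIs in the 13 cells, and its log2 fold moved from -2.19 to -6.15. The glucocorticoid receptor gene Nr3c1 stood at 49.4 against 213 CPM (0.232, 0.157 to 0.333), and Fkbp5, a target and regulator of that receptor, at 63.3 against 233 CPM (0.272, 0.193 to 0.375). Of the 32 Nr3c1 UMIs of the positive cells 21 lay in the 13 cells, and the stricter division moved the log2 fold of Nr3c1 from -2.11 to -3.44 and that of Fkbp5 from -1.88 to -2.71. Pcsk1 (0.549) and Lifr, a receptor of leukaemia inhibitory factor (1.13), were not called. Over all 9 tested receptors and input genes, 1 was higher (Drd2) and 4 lower (Crhr1, Avpr1b, Fkbp5 and Egfr), with a median fold of 0.511. Thinned to 3000 UMIs, Crhr1 was found in 4.17% of positive and 29.9% of the other Pomc cells.

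**Figure D3:**
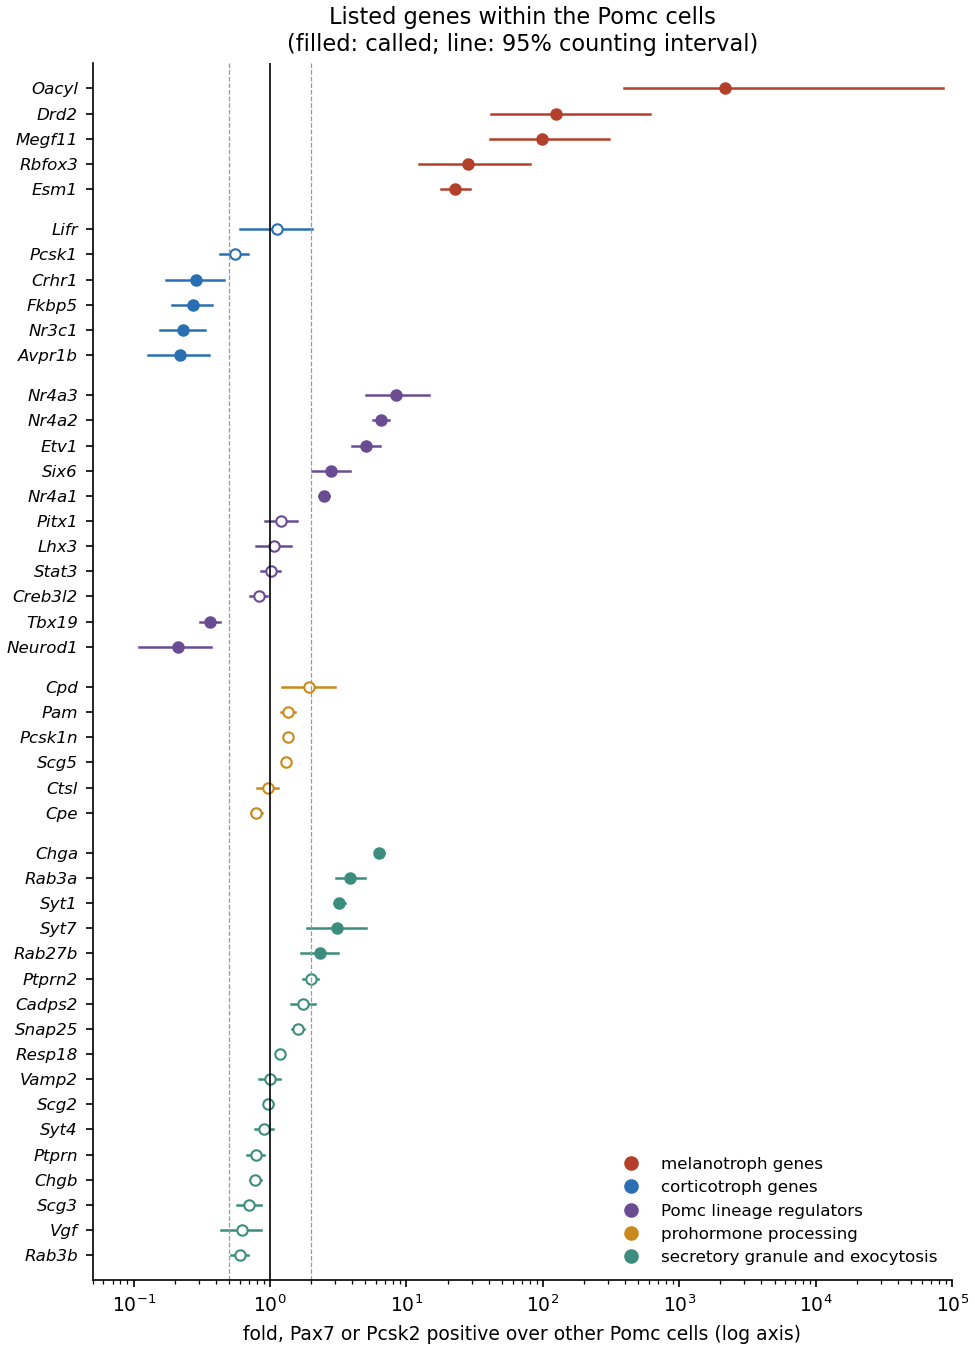
Fold of tested listed genes in Pax7 or Pcsk2 positive over the other Pomc cells (x axis, logarithmic), grouped by list; filled points are called, open points are not, lines are 95% counting intervals, the solid line marks 1 and the dashed lines 0.5 and 2. The melanotroph genes lie between 22.8 and 2179, while Crhr1, Avpr1b, Nr3c1 and Fkbp5 lie between 0.220 and 0.288, values that include the 13 cells with 1 Pcsk2 UMI; with at least 2 UMIs of Pax7 and Pcsk2 required, their log2 folds run from -6.15 (Avpr1b) to -2.71 (Fkbp5).

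The regulators of the lineage were divided. Of 13 tested, 6 were higher in the positive cells and 3 lower, with a median fold of 1.21. Tbx19 itself was lower, at 235 against 645 CPM (0.364, 0.305 to 0.431). It had a UMI in like shares of both classes, 81.6% and 86.1%, and the difference in level showed after thinning to 3000 UMIs, at 51.4% and 77.5%. The per-cell median was 2 Tbx19 UMIs in the positive and 4 in the other cells, and the highest counts were 12 and 27, so the ranges overlapped.

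Neurod1, a basic helix-loop-helix factor of corticotrophs, was also lower (20.1 against 95.4 CPM, 0.210, 0.110 to 0.369). Its log2 fold was -2.25, and -4.74 under the stricter division. All 3 orphan nuclear receptors of the Nr4a family were higher, Nr4a1 by 2.48-fold, Nr4a2 by 6.47-fold and Nr4a3 by 8.41-fold. Etv1 (5.04-fold) and Six6 (2.81-fold), an Ets and a homeobox factor, were higher as well. Pitx1 (1.21), Lhx3 (1.06) and Stat3 (1.01) were not called.

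The Nr4a genes are also induced by acute stimulation, so the immediate early genes are given beside them. Of 10 such genes, 2 were called, Jun (2.17-fold) and Dusp1 (2.30-fold), both higher in the positive cells, and the median of the 10 was 0.937. Fos stood at 5119 CPM in the positive and 5243 in the other Pomc cells. The part of dissociation in the Nr4a values was not tested.

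Of 7 tested genes of hormone processing, 0 were called. Pcsk2 is on the same list, but it made the division and was not tested. Pcsk1 stood at 0.549-fold (0.431 to 0.692), an interval below 1, but did not reach a 2-fold difference. Pcsk1n, the inhibitor of the Pcsk1 product, stood at 1.35-fold, Scg5, the chaperone of the Pcsk2 product, at 1.31-fold, Pam, which amidates peptides, at 1.36-fold and Cpe, the carboxypeptidase, at 0.795-fold. Nor was any of 13 tested genes of the endoplasmic reticulum called, with a median of 1.04. In the granule and exocytosis list 5 of 17 were higher and 0 lower. Chga, chromogranin A, stood at 3360 against 533 CPM (6.31, 5.85 to 6.80), and the median per cell was 25.5 UMIs in the positive and 3 in the other class. Chgb, chromogranin B, was at 0.780 and was not called. The others were Rab3a (3.88-fold), Syt1 (3.23-fold), Syt7 (3.08-fold) and Rab27b (2.31-fold), which act in vesicle docking and calcium-triggered release.

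The 10 largest folds in each direction were taken among called genes present in at least 10% of the cells of the higher class. Those higher in the positive cells included Oacyl, Drd2 and Megf11. Grik1, a kainate receptor subunit, had 150 UMIs in the positive and 1 in the other cells (449-fold, 79.3 to 17846). Gabra2, a GABA-A receptor subunit, had 113 and 0 UMIs, which is at least 113-fold higher when 3 counts over the other class are taken as the floor. Nrg3, a neuregulin, reached 149.6-fold (63.3 to 465) and Sema3e, a semaphorin, 106-fold (35.2 to 521). Il1rapl2 (320-fold, 87.6 to 2661), Gulo, the last enzyme of vitamin C synthesis (299-fold, 52.5 to 11936), and Enc1 (200.5-fold, 54.4 to 1673) completed the list.

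The largest folds in the other direction follow. Calca, the calcitonin gene, had 1 UMI in the positive cells and 226 in the others (75.5-fold lower, 13.4 to 2996). Cartpt, the gene of the CART peptide, had 1 and 198 (66.2-fold lower, 11.7 to 2626). Hbegf, a ligand of the epidermal growth factor receptor, was 12.3-fold lower (4.70 to 45.7), and the receptor gene Egfr was 2.56-fold lower and had a UMI in 14.5% and 46.0% of cells. Rbp4, a carrier of retinol, was 14.1-fold lower (5.95 to 43.9) and Chrne, an acetylcholine receptor subunit, 28.2-fold lower (12.0 to 87.3). Spink8, Rsph10b, 4921528I07Rik and Fam89a were 12.7-fold to 29.1-fold lower.

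Several of these genes were held by part of the Pomc cells without Pax7 and Pcsk2. Calca was found in 27 of the 252 cells (10.7%) and Cartpt in 26 (10.3%). The shares were 3.41% and 1.61% of Gh or Prl cells, and 1.66% and 0.402% of leukocytes. Cells were not thinned, and the leukocytes were shallower, with a median of 4454 UMIs against 9325 in the 252 cells. The 5 highest cells held 54.9% of the Calca UMIs and 72.2% of the Cartpt UMIs, and the highest single cells held 37 and 45. Only 3 cells held both. Chrne was less concentrated, in 78 cells (31.0%), with 27.5% of its UMIs in the 5 highest. Crhr1 was found in 128 cells and Avpr1b in 125, with 82 holding both, which is 64.1% of the Crhr1 cells and 65.6% of the Avpr1b cells.

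Cga, the common subunit of the glycoprotein hormones, was uneven as well. It had 563 UMIs in 46 of the other Pomc cells, of which a single cell held 278, and 31 UMIs in 9 positive cells.

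Against the Gh or Prl cells, 886 of 10259 tested genes (8.64%) were higher in Pomc cells and 1521 (14.8%) lower, with a median fold of 0.956 over all tested genes. These counts depend on the scale, because 45.5% of the UMIs of the Gh or Prl cells were of Gh or Prl. With all UMIs in the denominator, the median of all genes moved by 0.71 on the log2 scale, and 3242 genes were higher and 695 lower, so that 82.3% of called genes were higher in place of 36.8%. Folds are given on the first scale, and for named genes it is said where the other ends a call. Genes listed for other cells were among the lower ones, with 8 of 11 tested leukocyte genes and 4 of 5 oligodendrocyte genes. With all UMIs these were 5 and 3, and 0 were higher on either scale. The part of RNA from other cells in the 1521 lower genes was not tested.

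Among the regulators, 6 of 13 were higher and 0 lower (9 and 0 with all UMIs). Tbx19 was 42.9-fold higher (29.7 to 64.3), Neurod1 58.5-fold (19.7 to 286) and Lhx3 4.31-fold (3.18 to 5.95). Creb3l2, a factor of secretory capacity, was 2.43-fold higher (2.18 to 2.71), and Nr4a1 2.03-fold. Nr3c1 (0.962) and Stat3 (0.958) were not called. Without the upper limits on genes and UMIs, which also changed the Gh or Prl cells, the log2 fold of Tbx19 was 4.32 in place of 5.42 and that of Neurod1 3.64 in place of 5.87.

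Of 10 tested receptor and input genes, 5 were higher and 2 lower (5 and 1 with all UMIs). Avpr1b was 58.3-fold higher in Pomc cells (22.5 to 216), Crhr1 33.7-fold (15.2 to 92.8), Egfr 5.93-fold (4.14 to 8.71) and Drd2 2.68-fold (1.88 to 3.90). The value of Drd2 rests on the positive cells, which held 124 of its 127 UMIs: the other Pomc cells stood at 1.55 CPM, below the Gh or Prl cells at 18.3 CPM. Without the upper limits on genes and UMIs, the log2 fold of Crhr1 was 3.54 in place of 5.07 and that of Avpr1b 4.51 in place of 5.87. Ghrhr, the receptor for growth hormone-releasing hormone, had 0 UMIs in the Pomc cells and 744 in the Gh or Prl cells, which is at least 280-fold lower at a floor of 3 counts over the Pomc cells. Crhbp, which binds corticotropin-releasing hormone, had 0 and 106 UMIs (at least 39.9-fold lower). Lifr was 3.24-fold lower (2.41 to 4.41), a call that was lost with all UMIs in the denominator.

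**Figure D4:**
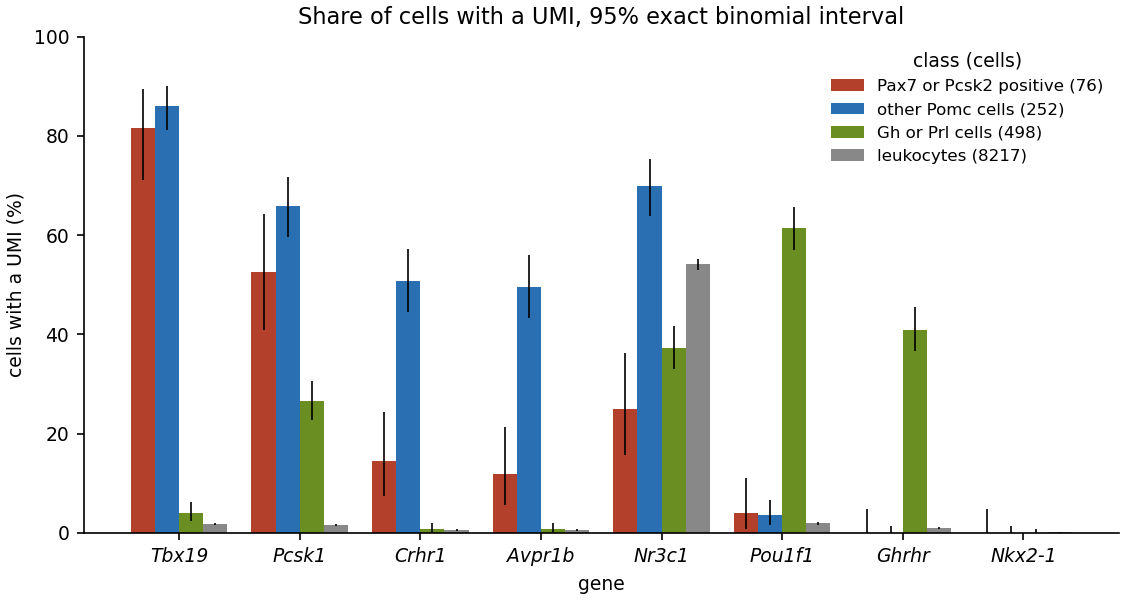
Share of cells with a UMI (y axis, percent) for 8 genes in the positive Pomc cells, the other Pomc cells, the Gh or Prl cells and the leukocytes of FMC_new, with exact 95% binomial intervals; cells were not thinned, so depth differs between classes. Tbx19 stands at 81.6% and 86.1% in the Pomc classes and at 4.02% in Gh or Prl cells, whereas Pou1f1 stands at 61.4% in Gh or Prl cells and under 4% in both Pomc classes.

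Genes of the somatotroph, lactotroph and thyrotroph lineages were low in the Pomc cells. Of 6 tested, 5 were lower on both scales. Pou1f1, the factor of those lineages, had 13 UMIs in 12 Pomc cells (3.66%) and 1074 UMIs in 61.4% of Gh or Prl cells, and 1.94% of leukocytes held it. Esr1, the oestrogen receptor, was 14.1-fold lower, and within the Pomc cells it had 32 UMIs in the positive and 11 in the other class.

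In the granule list 5 of 18 were higher and 3 lower, and with all UMIs 11 were higher and 1 lower. Vgf, a granule peptide precursor, was 8.44-fold higher (5.67 to 13.1), Chga 5.26-fold, Rab27b 4.96-fold, Rab3b 4.64-fold and Scg2, secretogranin, 2.28-fold. Chgb was 3.07-fold and Syt7 2.84-fold lower, calls that were both lost with all UMIs, and Cadps, which primes granules, was 6.95-fold lower on the first scale and kept its call. Of the processing genes, 2 of 10 were higher (4 with all UMIs), namely Pcsk2, which is held by the positive cells, and Cpe (2.10-fold). Pcsk1 stood at 1.76-fold (1.52 to 2.04) and Pcsk1n at 1.81-fold, neither called, and with all UMIs both were called higher, at 2.89-fold and 2.96-fold. In the endoplasmic reticulum list 0 of 13 were higher and 2 lower, Dnajb9 and Herpud1, and with all UMIs 1 was higher and 0 lower, so no direction is given.

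The 10 largest folds over Gh or Prl cells were led by Chrne, with 427 UMIs against 1 (379-fold, 67.6 to 14985). Nmb, the gene of the peptide neuromedin B, was 63.8-fold higher (21.6 to 312), and Gfra4, a receptor subunit of the GDNF family, 66.5-fold (11.6 to 2661). Shisa2, Gulo, Gprc5a, Khdrbs2 and Espn, an actin-bundling gene, lay between 57.6-fold and 94.0-fold, beside Neurod1 and Avpr1b. Chrne and Nmb were found in 1.67% and 5.98% of leukocytes, against 25.0% and 22.0% of Pomc cells. Lower in Pomc cells by the largest folds were Pappa2, a protease of insulin-like growth factor binding proteins (1 UMI against 364), and 5330429C05Rik (1 against 363). Ghrhr, Ccdc192, Grb10, Col1a2, A830018L16Rik, Gm14618, Aebp1 and Cyp27a1 followed, at 133-fold to 280-fold lower.

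The tissue label of the library is optic nerve, and the Pomc cells carried the defining genes of pituitary cells given above. Markers of other cells were read over whole lists. Of the 7 genes listed for hypothalamic Pomc neurons, Nkx2-1, Prdm12, Lepr and Otp had 0 UMIs in the 328 Pomc cells, and a count of 0 leaves room for at most 0.915% of cells with a UMI for each. The other 3 were detected. Cartpt is described above, Six3, a homeobox factor of the ventral forebrain and pituitary, stood at 295 CPM in the positive and 42.3 CPM in the other Pomc cells (6.97-fold, 5.35 to 9.14), and Mc3r had 8 UMIs, all in positive cells.

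The 12 leukocyte genes summed to 1139 CPM in Pomc cells (1085 in the positive and 1157 in the other class). They summed to 3985 CPM in Gh or Prl cells and 30227 CPM in leukocytes. Of the 7 tested between the Pomc classes, C1qa and Tyrobp were higher in the positive cells and Lyz2 lower. The 5 oligodendrocyte genes summed to 2019 CPM in Pomc cells, 6196 in Gh or Prl cells and 5101 in leukocytes. Mag, at 4.26-fold, was the only one called within the Pomc cells, and its 37 UMIs lay in 3.95% of the positive cells. Of the astrocyte genes, Slc1a3 (4.23-fold) and Aldoc (3.42-fold) were higher in the positive cells, while Gfap had 2 UMIs there. Ptprz1, from the glioma and precursor list, was 3.31-fold lower in them.

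The remaining lists held few UMIs. The 4 gonadotroph genes other than hormones had 22 UMIs over all Pomc cells, the 9 stem cell and pituicyte genes 75, the 8 stromal and endothelial genes 28 and the 6 cell cycle genes 12. In Pomc cells, Gh or Prl cells and leukocytes, the gonadotroph genes stood at 8.50, 5.67 and 0.887 CPM. The stem cell and pituicyte genes stood at 29.0, 33.1 and 39.8 CPM, with 57.1 in the positive and 19.6 in the other Pomc cells. The stromal and endothelial genes stood at 10.8, 176 and 49.6 CPM, and the cell cycle genes at 4.64, 23.5 and 194 CPM. None of these lists had a tested gene between the Pomc classes. The part of other cell types in the values of the Pomc cells was not tested.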

How the data were processed

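Gene expression was measured in 2 single-cell libraries, one of which held the Pomc cells. The deposited values are raw UMI counts per gene and barcode that the authors made with Cell Ranger 7.2.0, per the file headers, against mm10; the submitters' processing notes also name Seurat 5.2.1, and the methods of the study name an earlier Cell Ranger version. Whether intronic reads were counted is not given in the sources used here. The matrices hold 32285 genes.

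The filters on genes, UMIs and mitochondrial share are those of the study. For each class, the counts of all its cells were added and expressed per 1000000 UMIs of genes other than Pomc, Gh, Prl, Tshb, Lhb, Fshb and Cga. Intervals are exact (Clopper-Pearson for shares, Poisson for levels, conditional binomial for folds, all at 95%). A count of 0 was read as up to 3 counts. Cells were thinned without replacement to 1000 or 3000 UMIs with a fixed seed, and 52 of 328 Pomc cells were below 3000. No doublet caller was run. The calculation of folds was tested on simulated counts, and that of thinning on the Pomc cells themselves. Python 3.11.15, numpy 2.4.6, scipy 1.17.1 and pandas 2.3.3 were used.

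The members and the 19 gene lists (163 genes) were chosen with earlier results of these data known, and support nothing by themselves. Values of 2 genes that the lists and the rule for named genes include are counted but not reported here by name. Ddit3 was left out because its symbol is shared by 2 gene IDs. Named genes are those of the lists and, per comparison and direction, the 10 called genes with the largest fold that had a UMI in at least 10% of the cells of the higher class. Alternatives were another Pomc threshold, no Ptprc limit, other cell filters, thinning, another denominator, another minimum of UMIs and a stricter division.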

Additional observations from a re-analysis of the deposited data

Results flagged for a closer look

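Signal for Pomc was present in data outside the comparisons. In FMC_new, 44 barcodes outside the filters held Pomc at 5% or more of UMIs with no Ptprc, the highest at 36.3%. Of these, 21 had over 5000 genes, 13 over 20000 UMIs, 20 under 500 genes and 6 over 5% mitochondrial UMIs, and a barcode may count more than once. A Tbx19 UMI was found in 28 of the 44 and a Pax7 or Pcsk2 UMI in 17. In C-ON, Pomc had 277 UMIs in 257 barcodes, with at most 2 in a barcode and at most 0.102% of its UMIs, while Tbx19 and Pax7 had 0 UMIs and Pcsk2 had 589.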

How the results depend on the processing

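The 13 alternatives gave 75 counts and shares, of which 44 stayed within 1.5 times the reported count or inside the interval of the reported share, including all of those without a Ptprc limit, without upper limits and with the mitochondrial limit at 10%. The genes behind a count could change even where the count stayed within limits. Of the 469 higher and 472 lower genes within the Pomc cells, 427 and 405 were called again without a Ptprc limit. At a Pomc threshold of 2% 351 and 291 were, at 10% 206 and 194, and at 20% 2 and 5. At a Pomc threshold of 2% there were 701 cells, with Tbx19 in 78.6% and Pax7 or Pcsk2 in 17.4%. At 10% there were 128 cells, with Pax7 or Pcsk2 in 39.1% and 262 genes higher in the positive cells. At 20% there were 11 cells, with Tbx19 in 63.6% and Pax7 or Pcsk2 in 36.4%, and the genes called were 11 higher and 10 lower within the Pomc cells and 474 higher and 652 lower against Gh or Prl cells. Thinned to 1000 UMIs, the shares were 31.9% and 15.8%, and the counts, in the same order, 41, 71, 297 and 245. Thinned to 3000 UMIs, Tbx19 was at 70.7% and the counts were 122, 233, 521 and 598. Thinning leaves fewer UMIs and fewer tested genes by construction. With all UMIs in the denominator, 3242 genes were higher and 695 lower against Gh or Prl cells. A minimum of 20 UMIs gave 894 genes higher in the positive cells. A minimum of 200 UMIs gave 74, 151, 388 and 543. The 18 log2 folds followed, with Tbx19, Neurod1, Crhr1 and Avpr1b in both comparisons, gave 223 values. Of these, 49 left the counting interval of the reported fold. A fold of 0 has no log2 and was not among the values. No direction changed among the 223, but 54 of them could not move, because leaving out Pomc cells with Gh or Prl at 10% removed 0 cells and a minimum of UMIs does not enter a fold. The first of these also gave 7 of the 44 counts and shares that stayed within limits.

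No paired analysis was possible because both libraries are in one group and one of them holds no Pomc cell. There was no replicate to leave out. All values come from 1 pool of 10 mice, so the spread between animals is not known. Thinning kept the cells and their division as set on all UMIs.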

Other observations

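The Pomc threshold left out cells with the genes of the positive class. Among kept cells outside the Pomc cells, 29 held Pax7 and at least 2 Pcsk2 UMIs, and 20 held Pax7 and at least 10. Their median Pomc share was 1.68% for the 29, and 11 of the 29 held Ptprc. Of the leukocytes, 35 held at least 2 Pcsk2 UMIs and 6 at least 10.

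Sex-linked transcripts were unevenly spread between the classes of this pool. Xist with no Y-linked UMI (Ddx3y, Uty, Eif2s3y or Kdm5d) was found in 268 of 328 Pomc cells (81.7%, 77.1 to 85.7%), and a Y-linked UMI without Xist in 1 (0.305%, 0.00772 to 1.69%). The corresponding shares were 59.2% and 3.41% of Gh or Prl cells and 52.6% and 13.2% of leukocytes. Both kinds were present in 3 Pomc cells and neither in 56. The classes differ in depth, with medians of 9590, 6960 and 4454 UMIs, and the sexes of the pooled mice are not in the labels.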
